A study of Mus musculus with 5 samples.

Results

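The 73 genes described here are the histone deacetylases (Hdac), sirtuins (Sirt), lysine demethylases (Kdm), MLL-type methyltransferases (Kmt2), chromodomain helicases (Chd), SWI/SNF-type remodeller subunits (Smarc) and AT-rich interaction domain proteins (Arid) of the mouse. They were chosen by gene symbol alone and make up 73 of the 47729 genes in the count table: 11 Hdac, 7 Sirt, 18 Kdm, 5 Kmt2, 9 Chd, 13 Smarc and 10 Arid genes, all annotated as protein-coding. All 5 libraries are of mRNA from the right hemisphere of the brain of C57BL/6 males at an age of 5 months, and the labels name no treatment, mutation or second group. The samples carry different numbers in their titles, are called animals 1 to 5 here in accession order, and are not stated to be separate animals, so a p-value here speaks only of the spread among the 5 libraries, which may be technical.

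These proteins set how tightly DNA is packed. Deacetylases and most sirtuins remove acetyl groups from histones or other proteins, demethylases remove and Kmt2 enzymes add methyl groups on histone lysines, and Chd and Smarc ATPases slide or evict nucleosomes. Many work only inside complexes, such as NuRD (a Chd helicase with Hdac1 or Hdac2) and BAF (Smarca2 or Smarca4 with further Smarc and Arid subunits), and in neurons several of these complexes exchange one paralog for another.

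Total counts ran from 13184234 to 15570064 per library. Levels between genes are given as RPKM, counts per kilobase of gene length, scaled to the same library's total, and differences between animals as log2 deviations of counts scaled to library depth. In a whole hemisphere, fewer cells of a type and less RNA per cell cannot be told apart. Markers of excitatory neurons, inhibitory neurons, astrocytes, oligodendrocytes and microglia were all detected (mean RPKM of at least 1 for 7 of 7, 7 of 7, 6 of 6, 7 of 7 and 7 of 7), whereas 0 of 4 markers of dividing cells reached 1 RPKM. All 5 red blood cell genes, the interneuron gene Pvalb and the cerebellar gene Cbln1 varied between animals beyond the threshold used below.

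Nearly every member was expressed. A mean of at least 1 RPKM was reached by 70 of 73 members (95.9%), against 55.6% of 21697 protein-coding genes. The median member stood at 6.93 RPKM, above the 1.81 of all protein-coding genes and near the 7.90 of those with at least 1 RPKM, so the members were mostly of middling level: 25 exceeded 10 RPKM and 12 exceeded 20. Together they took 0.71% ± 0.0128 (SD, n = 5) of all counts, and Chd3, Smarcc2 and Smarcd1 alone held 24.3% of their summed RPKM. The 3 members under 1 RPKM were Arid5a (0.965), the H3K9 demethylase gene Kdm4d (0.505) and Arid3c (0.0812), which rested on 0 to 4 counts per library.

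**Figure D1:**
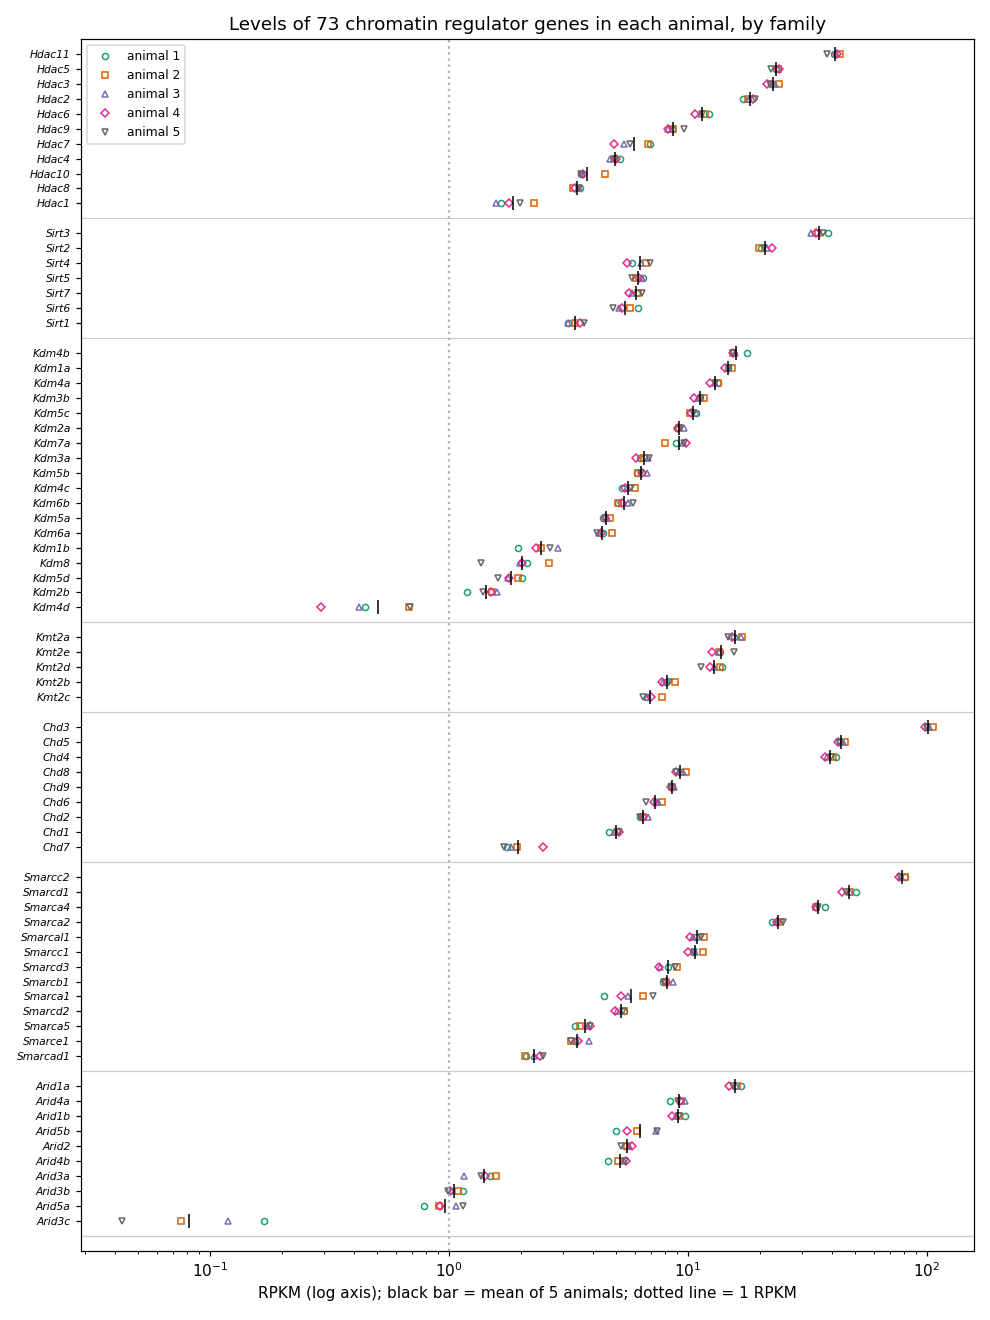
RPKM of each of the 73 genes (log axis) in each of 5 animals, grouped by family and ordered by mean, with a bar at the mean and a dotted line at 1 RPKM. Chd3 is highest at 101 RPKM, and the points of single genes lie close together next to the gaps between genes; Arid3c in animal 4, with 0 counts, is not drawn.

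Among the histone deacetylases, Hdac11 was the highest. Hdac11, the only class IV enzyme (ENSMUSG00000034245, GRCm38 chromosome 6, 91156665 to 91174692), stood at 40.9, 43.1, 41.4, 42.0 and 38.3 RPKM in animals 1 to 5, a mean of 41.2 ± 1.80 (SD, n = 5). All 5 values lay above every other Hdac gene, and 17.9% of its exon bases overlap the annotated gene Gm44002, whose reads cannot be told apart where strand was not counted. The class IIa enzyme Hdac5, a signal-responsive partner of MEF2 factors, followed at 23.4 ± 0.702 RPKM, then the class I enzymes Hdac3 (22.6 ± 1.09), the catalytic subunit of NCoR complexes, and Hdac2 (18.1 ± 0.795). The ranges of Hdac5 and Hdac3 overlapped, with Hdac5 higher in 4 of 5 animals. Lower down came the tubulin deacetylase Hdac6 (11.5), Hdac9 (8.66), Hdac7 (5.96), Hdac4 (4.95), the polyamine deacetylase Hdac10 (3.77), Hdac8 (3.44) and Hdac1 (1.85). By class, summed RPKM was 46.0 ± 1.19 for the 4 class I genes, 43.0 ± 1.01 for the 4 class IIa genes, 41.2 for Hdac11 and 15.2 ± 0.772 for Hdac6 with Hdac10, so that 1 gene held 28.3% of the family's RNA per length.

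Hdac1 and Hdac2, whose proteins are 86.5% identical, form the catalytic core of NuRD, Sin3 and CoREST complexes and differed 9.39-fold. Hdac1 read 1.65, 2.26, 1.57, 1.79 and 1.98 RPKM in animals 1 to 5, and Hdac2 read 17.0, 17.8, 18.0, 18.7 and 19.1. Every animal had more Hdac2, by 2.92 to 3.43 on the log2 scale. The Hdac1 value is uncertain, because 41.3% of its 50-base words also occur in other genes and the sources used here do not say how reads with several matches were counted. The main copy is Gm10093 on chromosome 17, 99.4% identical over 99.9% of the Hdac1 coding bases and itself listed with 3 to 6 counts per library. The opening coding bases of 3 members that have such copies are shown because a read from these stretches cannot be placed, or can be placed by only a few bases. Capitals mark bases that differ from the member above them. The Hdac2 line covers coding bases 21 to 90 of Hdac1, where it can be aligned, and 14 of its 70 bases differ; Gm10093 has 0 differences in 90 bases, Gm13034 has 4 and Gm8494 has 1. Sequences are from the GENCODE M21 annotation on GRCm38, 5′ to 3′.
Hdac1 (chromosome 4): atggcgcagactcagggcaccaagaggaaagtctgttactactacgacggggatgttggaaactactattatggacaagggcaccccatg
Gm10093 (chromosome 17): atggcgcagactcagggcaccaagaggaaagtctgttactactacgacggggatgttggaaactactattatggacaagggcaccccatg
Hdac2 (chromosome 10): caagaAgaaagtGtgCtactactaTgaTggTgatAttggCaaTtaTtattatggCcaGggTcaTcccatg
Smarca5 (chromosome 8): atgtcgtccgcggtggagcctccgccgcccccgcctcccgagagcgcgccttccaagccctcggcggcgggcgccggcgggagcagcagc
Gm13034 (chromosome 4): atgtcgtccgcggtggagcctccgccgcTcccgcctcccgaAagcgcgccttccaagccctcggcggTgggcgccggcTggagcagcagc
Smarce1 (chromosome 11): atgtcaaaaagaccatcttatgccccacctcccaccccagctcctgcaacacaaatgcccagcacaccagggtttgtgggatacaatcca
Gm8494 (chromosome 5): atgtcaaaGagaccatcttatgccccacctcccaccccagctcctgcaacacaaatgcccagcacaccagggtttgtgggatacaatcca

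The other deacetylase pairs also kept their order in every animal. Hdac3 exceeded its class I relative Hdac8 by 6.40-fold, and Hdac5 exceeded Hdac4 by 4.66-fold and Hdac7 by 3.92-fold. Hdac6 exceeded Hdac10, the other class IIb enzyme, by 3.0-fold. Hdac9 stood 1.73-fold above Hdac4 with the gene lengths of the deposited table, but Hdac4 was higher when all annotated exons of Hdac9 were counted as its length (log2 0.86) or when length was not used (log2 0.99). Hdac9 is 1 of 11 members whose length in the deposited table differs from the union of exons in GENCODE M21 by more than 10%. The Hdac4 exons also overlap an annotated neighbour over 22.4% of their bases.

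The sirtuins, NAD-dependent deacylases, were led by the mitochondrial deacylase Sirt3 and by Sirt2, a mainly cytosolic enzyme. Sirt3 (ENSMUSG00000025486, chromosome 7, 140863666 to 140882309) stood at 38.7, 34.8, 32.8, 34.2 and 36.6 RPKM in animals 1 to 5, a mean of 35.4 ± 2.27 (SD, n = 5), and Sirt2 at 21.0 ± 1.09. Sirt3 was above Sirt2 in all 5 animals with the deposited length, but Sirt2 was higher over the union of exons (log2 1.16) or without length (log2 0.92). The deposited table gives Sirt3 26.3% of its annotated exon length, and over the full length its mean is 9.31 RPKM. The share of the 3 mitochondrial genes (Sirt3, Sirt4 and Sirt5) in summed sirtuin RPKM was 57.2% with the deposited lengths and 32.2% over union exons. Sirt1, the nuclear enzyme that deacetylates p53 and PGC-1alpha, was the lowest sirtuin with the deposited lengths at 3.38 ± 0.236 RPKM, 6.06-fold below Sirt2.

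The ranges of the remaining 4 sirtuins overlapped with the deposited lengths, so they could not be put in 1 full order. Sirt5 was nevertheless above Sirt6 in all 5 animals. Sirt4 read 5.83, 6.70, 6.34, 5.54 and 6.93 RPKM in animals 1 to 5. Sirt5, a desuccinylase, read 6.45, 6.05, 6.44, 6.25 and 5.83, and was above Sirt4 in 3 of 5 animals (exact two-sided sign-flip test, p = 0.938). Of the Sirt5 words in coding transcripts 26.4% occur in other genes, so its level is uncertain. The table also gives it 22.4% of its union exon length, and over union exons its mean is 1.39 RPKM, below Sirt4 in all 5 animals (log2 -2.09). The nucleolar Sirt7 read 6.11, 6.16, 5.83, 5.66 and 6.42 RPKM. Sirt6, which acts on telomeric chromatin and in DNA repair, read 6.17, 5.72, 5.16, 5.28 and 4.87, above Sirt7 only in animal 1, with the widest range of the sirtuins at 1.27-fold (exact two-sided sign-flip test, p = 0.125). These 2 pairs were the only ones of the 39 member pairs whose order changed between animals.

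No single gene dominated the 18 lysine demethylases. Kdm3 and Kdm4 enzymes act mainly on H3K9, Kdm5 enzymes on H3K4 and Kdm6 enzymes on H3K27, and Kdm2 proteins bind unmethylated CpG DNA. Kdm4b, a Jumonji enzyme that removes methyl groups from H3K9 (ENSMUSG00000024201, chromosome 17, 56326062 to 56402870), led with 17.7, 15.4, 15.7, 15.5 and 15.5 RPKM in animals 1 to 5, a mean of 15.9 ± 0.968 (SD, n = 5), only 12.8% of the family's sum. Animal 1 was the high one, and the other 4 lay between 15.4 and 15.7. Next came Kdm1a (14.8 ± 0.385), the flavin-dependent LSD1 of CoREST complexes, Kdm4a (13.0), Kdm3b (11.2), and the X-linked H3K4 demethylase Kdm5c (10.5). Kdm2a (9.20), Kdm7a (9.18), Kdm3a (6.52), Kdm5b (6.35), Kdm4c (5.61), the H3K27 demethylase Kdm6b (5.39), Kdm5a (4.53) and Kdm6a (4.38) filled the middle. Kdm1b (2.43), Kdm8 (2.02), Kdm5d (1.82), Kdm2b (1.43) and Kdm4d (0.505) were lowest. Ranges over the 5 animals overlapped for 7 of the 17 neighbouring pairs in this order.

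Demethylase paralogs differed most where one of them was rare. Kdm4d read 0.444, 0.681, 0.419, 0.292 and 0.690 RPKM, from 13 to 29 counts per library, and lay 27.4-fold below Kdm4b on the scale of RPKM + 0.1. It also had the widest range of any tested member, 2.16-fold, at counts where counting noise is large. Kdm1a exceeded Kdm1b 5.91-fold, and Kdm2a exceeded Kdm2b 6.10-fold. Kdm3b was 1.7-fold above Kdm3a with the deposited length, but below it over union exons (log2 -0.21), and 24.6% of its exon bases overlap an annotated neighbour. Kdm4b and Kdm4a (1.22-fold), Kdm6b and Kdm6a (1.23-fold) and Kdm5b and Kdm5a (1.39-fold) were close, yet in 1 order in all 5 animals.

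Both Kdm5c and Kdm6a lie on the X chromosome and partners on the Y, and the X copies were the higher ones in these males. Kdm5c stood at 10.8, 10.2, 10.8, 10.3 and 10.5 RPKM, and Kdm5d, its Y-linked homologue, at 2.02, 1.95, 1.77, 1.77 and 1.61. The ranges were far apart, at 5.53-fold, although the proteins are 78.0% identical. The H3K27 demethylase gene Kdm6a read 4.40, 4.78, 4.24, 4.31 and 4.17 RPKM, against 1.37, 1.79, 1.54, 1.77 and 1.66 for its Y homologue Uty, which is not a member. That gap was 2.61-fold for proteins 78.5% identical.

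The 5 Kmt2 genes, of which Kmt2a to Kmt2d encode the catalytic subunits of COMPASS-like H3K4 complexes, lay within 2.28-fold of one another. Kmt2a, or MLL1 (ENSMUSG00000002028, chromosome 9, 44803355 to 44881296), read 15.5, 16.8, 16.6, 15.3 and 14.7 RPKM, a mean of 15.8 ± 0.895 (SD, n = 5). Kmt2e, which is thought to lack methyltransferase activity, read 13.6, 13.5, 13.5, 12.6 and 15.5, exceeding Kmt2a in animal 5 and lying below it in the other 4; its 1.23-fold range was the widest of this family. Kmt2d (12.8 ± 0.994) overlapped Kmt2e, whereas Kmt2b (8.18 ± 0.423) and Kmt2c (6.93 ± 0.489) stood apart below. Kmt2a exceeded its sister Kmt2b 1.92-fold, and Kmt2d exceeded its sister Kmt2c 1.83-fold, in 5 of 5 animals each. Among 15 COMPASS partners 14 reached 1 RPKM, led by Wdr82 (27.9 ± 0.542) and Psip1 (27.7 ± 0.944), while Pagr1a was listed at 0 and shares 93.4% of its words with an overlapping annotated gene.

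The Chd family was dominated by the 3 helicases of the NuRD complex. Chd3 (ENSMUSG00000018474, chromosome 11, 69343273 to 69369406), the highest of all 73 members, stood at 99.5, 106, 102, 98.2 and 100.2 RPKM in animals 1 to 5, a mean of 101 ± 2.94 (SD, n = 5). Chd5 followed with 43.4, 45.5, 44.3, 42.4 and 42.9, and Chd4 with 41.8, 40.2, 38.3, 37.3 and 39.5. The 3 genes held 82.7% of the family's summed RPKM. Chd3 was above both in every animal, and the Chd5 values lay above the Chd4 values throughout, although by only 1.11-fold.

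Of these helicases, Chd5 and Chd3 kept the steadiest balance. The log2 ratio of Chd5 to Chd3 was -1.20, -1.22, -1.20, -1.21 and -1.22 in animals 1 to 5, with an SD of 0.0119 that was the smallest of the 39 pairs. The ratio of Chd4 to Chd3 averaged -1.36 ± 0.0646 on the log2 scale, and the SD for Chd5 to Chd4 was 0.0627. Some pairs outside NuRD were steadier than these, such as Arid1a to Arid1b (SD 0.0340). All 9 NuRD partners were expressed, led by the methyl-CpG-binding family member Mbd3 (45.4 ± 2.55 RPKM) and the histone chaperone Rbbp7 (35.1 ± 2.02), which exceeded its near-identical relative Rbbp4 2.55-fold. The partners' median range between animals was 1.08-fold.

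Outside NuRD, Chd8 (9.27 ± 0.393), a gene known for its link to autism, and Chd9 (8.58 ± 0.127) were close to equal, with Chd8 higher in 5 of 5 animals by 1.08-fold. Over union exons the Chd9 mean is 4.29 RPKM and the log2 ratio of Chd8 to Chd9 is 1.06. Chd6 followed at 7.30, Chd2 at 6.47 and Chd1 at 4.98. Chd2 was 1.29-fold above Chd1 with the deposited lengths, but Chd1 was higher over union exons in 4 of 5 animals (log2 0.07), and 20.6% of the Chd2 words are shared, nearly all with the overlapping gene 1810026B05Rik. Chd7, the gene of CHARGE syndrome, was lowest at 1.93 ± 0.317 RPKM.

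In the Smarc family 1 scaffold, 1 accessory subunit and both ATPases of the BAF complex stood above 20 RPKM. Smarcc2, the BAF170 scaffold (ENSMUSG00000025369, chromosome 10, 128459248 to 128490482), led with 81.0, 80.6, 78.1, 76.6 and 76.9 RPKM, a mean of 78.6 ± 2.05 (SD, n = 5). Its paralog Smarcc1, or BAF155, stood at 10.7 ± 0.542, below it by 7.32-fold. No Smarcc2 value came near any Smarcc1 value. Smarcd1, or BAF60A, stood at 47.0 ± 2.39 RPKM, 8.83-fold above Smarcd2 and 5.65-fold above Smarcd3, whose exons overlap Chpf2 over 48.2% of their bases. Of the 2 alternative ATPases, Smarca4 (BRG1) read 37.3, 34.4, 34.4, 34.4 and 35.0 RPKM and Smarca2 (BRM) read 22.5, 24.3, 23.3, 23.6 and 25. Smarca4 was 1.48-fold higher per length in 5 of 5 animals, while Smarca2, the longer gene, collected more counts (log2 0.57).

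Among the BAF partners that neurons are known to exchange, the neuronal form was higher in 3 of 4 pairs. Actl6b, the neuronal BAF53B, read 19.0, 19.1, 18.0, 17.4 and 19.3 RPKM, against 3.33, 2.77, 2.68, 3.37 and 3.10 for Actl6a of progenitor cells, a 5.95-fold gap. Ss18l1, also neuronal, exceeded Ss18 by 3.41-fold, and the neuronal Dpf1 exceeded Dpf2 by 1.31-fold. Phf10, the progenitor-type subunit and also part of PBAF, went the other way, standing 10.4-fold above the neuronal Dpf3 (12.2 ± 0.454 against 1.09 ± 0.0495 RPKM). All 18 BAF and PBAF partners reached 1 RPKM, with Brd9 the highest at 31.2 ± 1.66.

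Of the other Smarc genes, the fork-remodelling annealing helicase Smarcal1 stood at 10.9 RPKM, the core BAF subunit Smarcb1 at 8.14 and Smarcad1 at 2.26. The ISWI ATPases Smarca1 (SNF2L) and Smarca5 (SNF2H) made up only 3.90% of the family's sum, against 24.2% for Smarca2 with Smarca4. Smarca1 was 1.53-fold above Smarca5, in 5 of 5 animals and with proteins 80.5% identical. This gap is uncertain, since 36.9% of the Smarca5 words occur in other genes, among them Gm13034, whose copy is 98.1% identical and is printed above. Smarce1 (3.43 ± 0.255), the BAF57 subunit, likewise shares 35.2% of the words of its coding transcripts. Among 9 ISWI partners 7 reached 1 RPKM, led by Bptf (14.0 ± 0.529) and Baz1b (13.8 ± 0.635).

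The Arid family held the DNA-binding subunits of BAF and more divergent regulators. Arid1a (ENSMUSG00000007880, chromosome 4, 133679008 to 133756769) read 16.6, 16.0, 15.9, 14.8 and 15.5 RPKM, a mean of 15.7 ± 0.666 (SD, n = 5). It exceeded its alternative Arid1b by 1.72-fold and the PBAF subunit Arid2 by 2.80-fold, in 5 of 5 animals each. Arid4a (9.18) and Arid4b (5.21), both subunits of Sin3 complexes, differed 1.75-fold per length, though Arid4b, the longer gene, had more counts (log2 0.47). Arid5b (6.29) lay 5.97-fold above Arid5a with the deposited length, which is 44.7% of its union exon length. Over union exons its mean is 2.81 RPKM and the log2 ratio falls from 2.58 to 1.44, with Arid5b above in 5 of 5 animals. Arid3a (1.39) lay 1.30-fold above Arid3b (1.05) per length, an order that turned without length (log2 0.11). All 9 Sin3 partners reached 1 RPKM, led by Sin3b (25.3 ± 0.428), which exceeded Sin3a 2.61-fold, and Sap30l (19.0 ± 0.582).

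**Figure D2:**
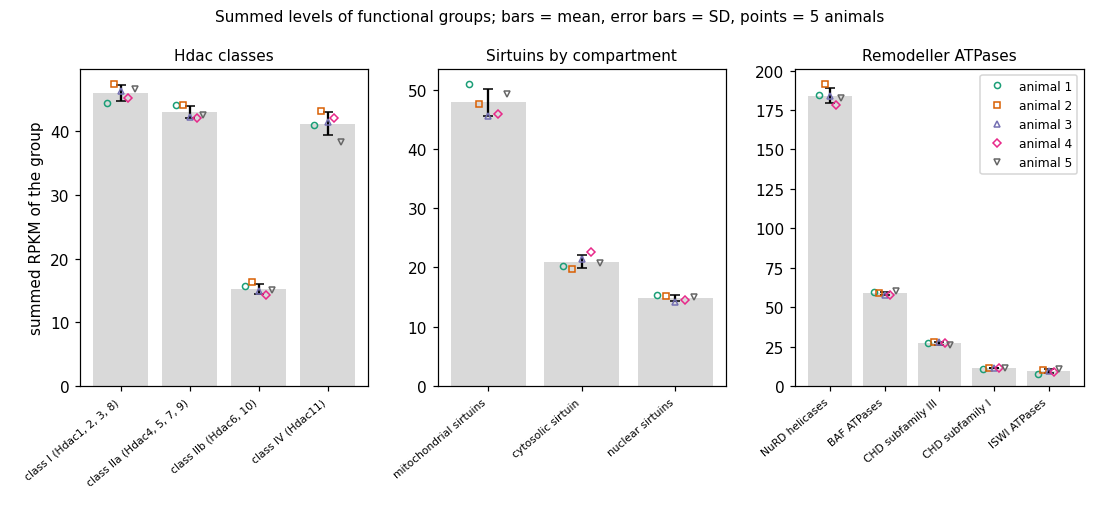
Summed RPKM of groups of members with a shared class, compartment or complex; bars show the mean of 5 animals, error bars the SD, and points the animals. The NuRD helicases sum to 184 RPKM against 58.8 for the BAF ATPases and 9.48 for the ISWI ATPases, and the sirtuin panel uses the deposited gene lengths.

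Across the 39 pairs of related members, 37 (94.9%) kept 1 order in all 5 animals. Any pair of the 14770 genes tested did so in 94.2% of cases, so the members' share was near the background. The smallest p that 5 animals allow in the exact two-sided sign-flip test is 0.0625, and all 37 pairs reached it. The median gap was 2.30-fold, with 21 pairs over 2-fold and 13 over 4-fold. Gaps covered a similar span for similar and for divergent proteins. The 8 pairs with at least 70% protein identity differed by 1.11-fold to 9.39-fold (median 2.43), and the other 31 by 1.01-fold to 27.4-fold (median 2.29). Within families, ranges of neighbours in the order of levels overlapped in 23 of 66 cases.

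**Figure D3:**
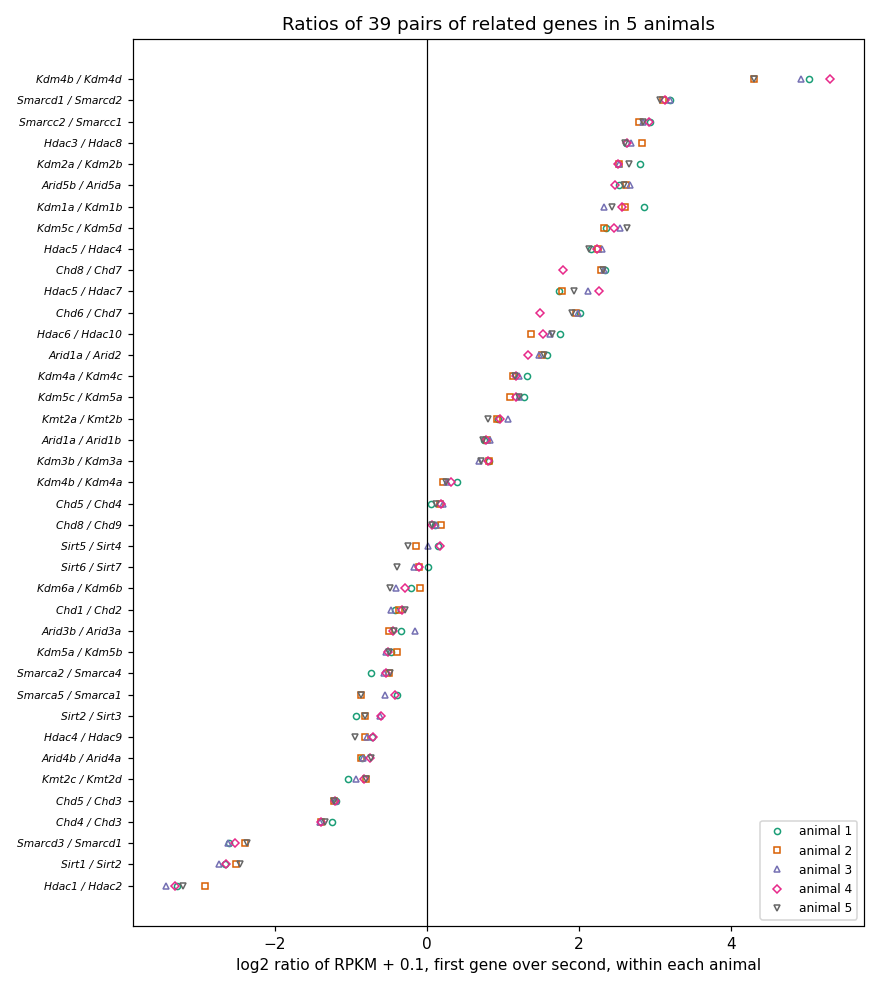
Log2 ratio of the RPKM + 0.1 of 2 related genes within each of 5 animals, ordered by mean ratio; the vertical line marks equal levels. The 5 points of 37 pairs lie on 1 side of the line, and those of Sirt5 over Sirt4 and Sirt6 over Sirt7 fall on both sides.

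With a single group, the remaining question was which members differed between the animals. Each gene's spread was compared with that of genes of like abundance in edgeR's quasi-likelihood fit over 14770 genes, 72 members among them (Arid3c was left out by the count filter). No member was more variable than this trend at an adjusted p under 0.05, against 45 of all genes (0.305%), and no member was less variable, against 0 genes. At an unadjusted p under 0.05, 6 members (8.33%) were more variable, next to 5.43% of all genes, and 1 (1.39%) less variable, next to 5.00%. The median member's highest animal exceeded its lowest by 1.14-fold, compared with 1.19-fold over all genes. Within the members' middle range of abundance the medians were both 1.13-fold (36 members among 4465 genes). DESeq2 marked 1 member, Smarca1, as a dispersion outlier, among 101 of 14770 genes. Without a count filter the edgeR fit called 4 members, namely Smarca1, Arid5b, Chd7 and Hdac7. That fit tested 28276 genes, 73 members among them, and also called more of all genes than the 45 above, in number and as a share. Within it the share called was still larger among the members than among all genes, a difference that was not tested. The prior degrees of freedom of that fit, which set the weight of the trend, were infinite, against 15.3 in the main fit.

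**Figure D4:**
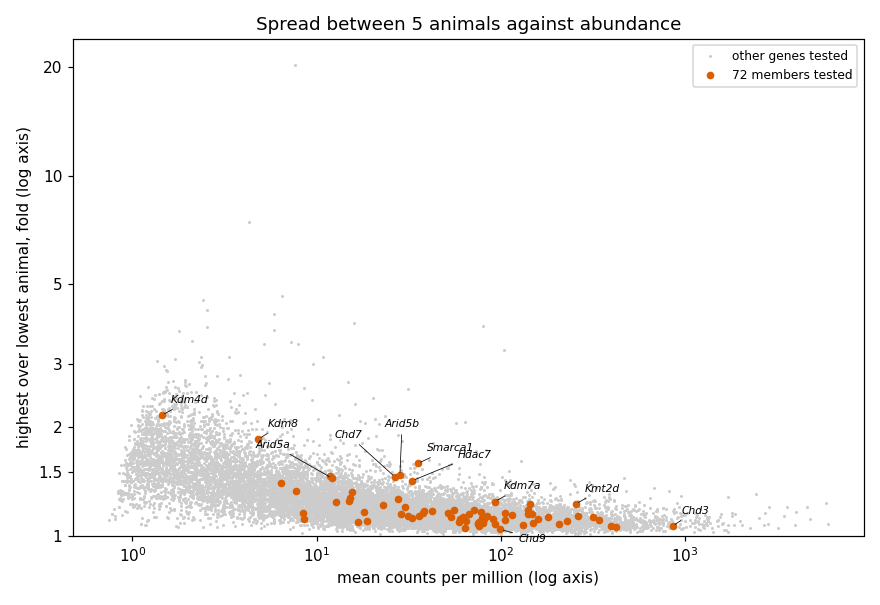
Highest over lowest animal (fold, log axis) against mean CPM, counts scaled to library depth (log axis), for 14770 tested genes in grey and 72 members in orange. Most members lie within the grey band, and Smarca1 at 1.59-fold, Arid5b at 1.47-fold and Chd7 at 1.45-fold lie toward its upper edge at their abundance.

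Smarca1 had the widest spread for its abundance. It read 4.46, 6.49, 5.62, 5.22 and 7.14 RPKM in animals 1 to 5, from 365 to 591 counts, a 1.59-fold range (edgeR adjusted p = 0.149). Animal 1 was lowest and animal 5 highest. Arid5b, a coactivator with a role in fat-cell and cartilage development, read 5.00, 6.11, 7.33, 5.56 and 7.43 RPKM, a 1.47-fold range (edgeR adjusted p = 0.271). Arid5a, an RNA-binding paralog, read 0.786, 0.905, 1.07, 0.917 and 1.15, with animal 1 again lowest and animal 5 highest (edgeR adjusted p = 0.956). In all, 8 of 72 tested members (11.1%) were lowest in animal 1 and highest in animal 5, against 6.64% of all tested genes; besides these 3 they were Hdac2, Sirt1, Smarca5, Chd1 and Smarca2, with ranges of 1.09 to 1.16-fold.

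Sgk1 and Tsc22d3, which glucocorticoids induce, varied in some of the same animals. Sgk1, a kinase gene of this kind, read 10.6, 12.5, 32.9, 14.9 and 35.2 RPKM in animals 1 to 5 (edgeR adjusted p = 8.49e-08), and Tsc22d3 read 13.9, 14.4, 24.1, 19.3 and 24.1 (edgeR adjusted p = 8.12e-04). Both were lowest in animal 1 and high in animals 3 and 5, as Arid5b was. Fkbp5, another gene of this kind, was not among the 45 genes that edgeR called more variable. Sgk1 and Tsc22d3 were chosen after their values were seen, and their part in the Arid5b, Arid5a or Smarca1 values was not tested.

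Smarca1, Arid5b and Arid5a are among the 8 members that were lowest in animal 1 and highest in animal 5, and were picked after their values were seen. They parted elsewhere: in animal 3 the log2 deviation was -0.016 for Smarca1 and 0.245 for Arid5b. A link between their promoters and these values was not tested. The 250 bases before their annotated starts are printed from RefSeq (GRCm38.p6), 5′ to 3′ on the gene's strand, with CpG dinucleotides in capitals.
Smarca1 (chrX:47892614-47892863, minus strand): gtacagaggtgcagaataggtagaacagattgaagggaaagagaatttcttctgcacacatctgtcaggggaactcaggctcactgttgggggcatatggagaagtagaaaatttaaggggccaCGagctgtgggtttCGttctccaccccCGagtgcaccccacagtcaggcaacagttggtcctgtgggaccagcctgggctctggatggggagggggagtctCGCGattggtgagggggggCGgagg
Arid5b (chr10:68278727-68278976, minus strand): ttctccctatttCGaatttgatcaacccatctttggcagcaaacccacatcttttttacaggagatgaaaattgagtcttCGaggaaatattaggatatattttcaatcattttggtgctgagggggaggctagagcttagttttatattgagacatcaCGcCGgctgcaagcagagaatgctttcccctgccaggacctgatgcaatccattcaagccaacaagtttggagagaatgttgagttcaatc
Arid5a (chr1:36307483-36307732, plus strand): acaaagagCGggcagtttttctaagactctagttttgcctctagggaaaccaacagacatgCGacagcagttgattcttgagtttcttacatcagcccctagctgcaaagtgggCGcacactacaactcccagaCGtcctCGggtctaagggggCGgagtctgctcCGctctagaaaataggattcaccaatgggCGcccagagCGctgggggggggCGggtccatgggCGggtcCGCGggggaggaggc

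These 3 windows hold 6, 4 and 13 CpG dinucleotides, and the ratio of observed to expected CpG is 0.33, 0.36 and 0.63. The windows of Smarca1 and Arid5b are thus poorer in CpG than most members. In GENCODE M21, Smarca1 runs from 47809368 to 47892974 on the minus strand. Its window, set by the RefSeq start, therefore lies inside the gene by that annotation. RefSeq gave 73 promoters for 55 of the 73 members, with a median of 19 CpG, a median ratio of 0.80 and 78.1% of promoters at 0.6 or more, against 10, 0.56 and 46.3% for 20004 promoters of protein-coding genes. The GC box GGGCGG, searched on both strands, occurred in 65.8% of member promoters and in 44.3% of all, TATAAA in 6.8% and 11.1%, and CCAAT in 32.9% and 35.0%. The 20004 promoters were not limited to expressed genes, whereas 95.9% of members reached 1 RPKM, against 55.6% of protein-coding genes. The part of expression in these contrasts was not tested. The glucocorticoid receptor palindrome, searched in its exact form, was found in 0 member promoters and in 2 of all 20004. It is too rare in such windows for its absence to say anything about the members. Of the members described next, the ratio is 0.91 for Kmt2d and 1.35 for Kdm7a, and it runs from 0.22 to 0.88 over the 4 promoters of Hdac7.

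The other 4 members with an unadjusted p under 0.05 for a wide spread were Hdac7, Chd7, Kmt2d and Kdm7a. Hdac7, a class IIa deacetylase known from endothelium, read 6.95, 6.83, 5.39, 4.90 and 5.73 RPKM (edgeR adjusted p = 0.382), high in animals 1 and 2 and lowest in animal 4. The 5 endothelial markers, all detected, summed to 71.9, 72.8, 68.0, 73.2 and 64.1 RPKM in animals 1 to 5. Their mean log2 deviation was 0.0338 in animal 2 and 0.0325 in animal 4, the highest values. The part of endothelium in the Hdac7 value was not tested. Kmt2d read 13.8, 13.6, 12.9, 12.4 and 11.4 (edgeR adjusted p = 0.830), lowest in animal 5. Kdm7a read 8.92, 7.98, 9.56, 9.81 and 9.63 (edgeR adjusted p = 0.837), lowest in animal 2, and without that animal its spread lay under the trend (log2 ratio -0.63).

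Chd7 read 1.75, 1.92, 1.82, 2.48 and 1.71 RPKM in animals 1 to 5 (edgeR adjusted p = 0.420), and animal 4 alone was high. Without animal 4 its spread lay under the trend (log2 ratio -1.13). Of the 11 marker lists, 7 also summed highest in animal 4, those of granule cells, oligodendrocytes, oligodendrocyte precursors, inhibitory neurons, astrocytes, microglia and endothelium. By mean log2 deviation, oligodendrocyte precursors were instead highest in animal 1 (0.054, against 0.018 in animal 4). Endothelium was highest in animal 2 by that measure. The 5 cerebellar granule cell markers, 3 of which reached 1 RPKM, summed to 29.5 RPKM there and to 17.4 to 23.3 in the others, and Gabra6, which defines granule cells, had 64 counts there and 0 or 1 in each other library. The 7 oligodendrocyte markers summed to 1056 RPKM in animal 4 and to 864 to 908 elsewhere. The part of any of these cells in the Chd7 value was not tested.

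**Figure D5:**
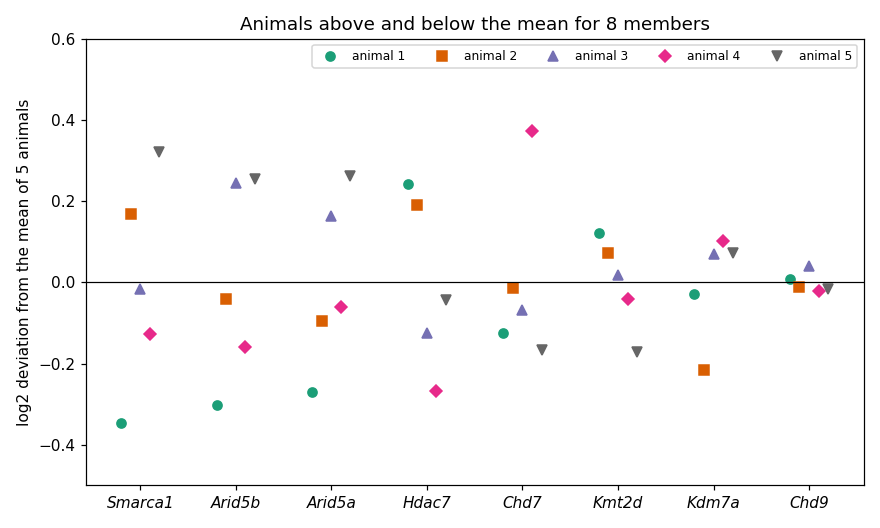
Log2 deviation of each animal from the mean of 5 for 8 members: the 6 with an unadjusted p under 0.05 for a wide spread, Arid5a, and Chd9 for a narrow one. Animal 1 is lowest and animal 5 highest for Smarca1, Arid5b and Arid5a, animal 4 stands alone for Chd7, and the Chd9 points lie close to 0.

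At the other end, Chd9 was the steadiest member for its abundance, with 8.58, 8.60, 8.77, 8.45 and 8.48 RPKM and a 1.04-fold range (edgeR adjusted p = 0.987). Its animals were almost level. Kdm5a (1.05-fold) and Kdm1a (1.06-fold) followed.

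Whole families moved little. The mean log2 deviation of all tested members ran from -0.035 in animal 4 to 0.029 in animal 2, with Kmt2 genes at 0.070 and Hdac genes at 0.064 in animal 2. The medians in animal 2 were 0.077 for Kmt2 and only 0.020 for Hdac genes, where Hdac1, Hdac10 and Hdac7 stood highest. In the same library 8 long nuclear RNAs, Malat1 among them, averaged 0.178, and their part in the family values was not tested. Of 121 tested genes among 123 in 11 lists of complex partners, related enzymes and class IIa targets, edgeR called 0 more and 0 less variable, with 4 and 5 at an unadjusted p under 0.05. Among 9 targets and kinases of class IIa deacetylases, Mef2d (47.1 ± 1.69) and Sik3 (33.4 ± 1.16) were highest.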

How the data were processed

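RNA from the right brain hemisphere was measured in 5 samples of 1 group. The authors used the genome build GRCm38 with the tools featureCounts 1.4.6-p4, STAR 2.4.1d and CASAVA 1.7, per the submitters' processing notes; which annotation and strand setting they chose, and what became of reads with several matches, is not given in the sources used here. Whole-number counts per Ensembl gene and an RPKM table were deposited by the authors. The deposited RPKM values were recovered in 100.0% of 117232 nonzero entries (tolerance 0.0011 RPKM plus a relative 0.0002) when the 5 library totals were used in turn down the rows, and in 24.1% with each library's own total, so 80% of entries were divided by another library's total. RPKM was therefore recomputed: counts were divided by the total of their own library and by the length implied by the deposited table.

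Spread between samples was tested in R 4.3.3 by edgeR 4.0.16 (robust glmQLFit with legacy settings, intercept only, after filterByExpr and TMM) as quasi-dispersion over the abundance trend, one tail at a time, with Benjamini-Hochberg adjustment over 14770 genes and a threshold of 0.05. The fit was tested on simulated data before use. There it called 37 of 67 genes raised 1.5-fold in some animals, 57 of 67 raised 2-fold and 66 of 66 raised 4-fold. It made 4 false calls among 14585 genes, so a spread of about 1.5-fold can be missed. The lower tail called 0 genes, but no narrow spread was simulated. Pair ratios used RPKM + 0.1 within each sample and the exact sign-flip test. A gene counted as uncertain where at least 20% of its 50-base words occur in other GENCODE M21 genes. Protein identity came from the translated longest coding transcripts, as a percentage of the shorter protein. Alternatives were DESeq2 1.42.0, limma 3.58.1 on RPKM, other filters, scalings, lengths and pseudocounts, and leaving out each sample.

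The members were picked out by gene symbol alone, but this rule, the gene lists and the pairs were set with earlier results of these data known. Named with every value are the highest and the widest-ranging tested member of each family, members called in either tail and pairs whose order changed; of each list, the 2 highest genes and any called one. The leading genes of 1 list and 1 partner pair are not reported here. Other members given with every value were added after their values were seen. Without molecular identifiers, reads cannot be taken as separate molecules, and depth covers counting error alone.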

Additional observations from a re-analysis of the deposited data

Results flagged for a closer look

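In 7 of the 122 levels and pair ratios examined, 1 animal lay far outside the range of the other 4; about 1 in 20 is flagged by chance. Animal 2 had 4.49 RPKM of Hdac10, against 3.56 to 3.63 in the others. Animal 1 was high for Kdm4b, at 17.7 RPKM against 15.4 to 15.7, and for Smarca4, at 37.3 against 34.4 to 35.0. Animal 4 was high for Chd7, at 2.48 RPKM against 1.71 to 1.92. The ratios that contain Chd7 moved with it: the log2 ratio of Chd6 to Chd7 was 1.49 in animal 4 and 1.91 to 2.02 elsewhere, and that of Chd8 to Chd7 was 1.80 against 2.29 to 2.35. The log2 ratio of Sin3a to Sin3b was -1.53 in animal 4 and -1.36 to -1.34 in the others.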

How the results depend on the processing

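The count of members more variable than the trend moved under 2 settings: the edgeR fit without a count filter called 4 in place of 0, and DESeq2 marked 1 as a dispersion outlier. Both settings also called more of all genes than the main fit. Without a filter, the share called by edgeR was larger among the 73 members than among all 28276 genes tested. The prior degrees of freedom were infinite in the edgeR fit without a filter and 15.3 in the main fit. The part of the prior, and of the higher number of calls over all genes, in the member calls was not tested. The number of pairs in 1 order ran from 35 to 38 of 39, and was 34 without pairs that hold a gene of shared sequence, an alternative chosen after seeing the data. Members expressed ran from 64 at a limit of 2 RPKM to 72 at 0.5. Orders that rest on gene length turned. Without length the log2 ratio was 0.99 for Hdac4 to Hdac9, 0.92 for Sirt2 to Sirt3, 0.57 for Smarca2 to Smarca4, 0.11 for Arid3b to Arid3a and 0.47 for Arid4b to Arid4a. Over union exons it was 0.86 for Hdac4 to Hdac9, 1.16 for Sirt2 to Sirt3, -0.21 for Kdm3b to Kdm3a and 0.070 for Chd1 to Chd2. Leaving out 1 animal each moved Sirt5 to Sirt4 between -0.056 and 0.048. The log2 ratio of spread to trend ran from -0.94 (without animal 1) to 0.61 for Sirt6 and -0.43 (without animal 5) to 2.10 for Kmt2e. It ran from -1.13 (without animal 4) to 2.88 for Chd7 and -0.63 (without animal 2) to 2.28 for Kdm7a. Each of these spreads thus fell under the trend when 1 animal was left out, and leaving out an extreme animal lowers the spread of any gene. Depth limits Arid3c and Kdm4d most. No paired analysis was possible because there is 1 group.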

Other observations

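Among enzymes that oppose or complement the members, all 10 histone acetyltransferase genes reached 1 RPKM, led by Kat5 (22.7 ± 0.473, SD, n = 5) and Kat2a (22.0 ± 0.966), and edgeR called 0 of them more or less variable than the trend, with 0 and 1 at an unadjusted p under 0.05. Of 16 Polycomb genes 13 reached 1 RPKM, led by Cbx6 at 87.9 ± 3.11, 10.8% of whose words occur in other genes. Ezh1 stood at 11.4, 11.6, 11.2, 10.8 and 11.2 RPKM in animals 1 to 5 and Ezh2, the H3K27 methyltransferase of dividing cells, at 0.962, 0.855, 1.01, 0.971 and 0.852, an 11-fold gap kept in 5 of 5 animals. All 7 other Jumonji genes reached 1 RPKM, with Phf2 (12.4 ± 0.562) and Hif1an (10.2 ± 0.279) highest. In the INO80 family 7 of 8 did, led by Actr8 (24.7 ± 0.678) and Ruvbl2 (15.8 ± 0.456), while the low value of Srcap (0.525 RPKM) is uncertain because 72.3% of its words are shared.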
